A study of Mus musculus with 18 samples.

Results

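*Luc7l*, *Rbm39*, *Tia1*, *Cnot2*, *Rnf111*, *Phf20* and *Cep170* are 7 genes whose alternative splicing moved in opposite directions in the cortex of mice lacking *Nova2* and of mice lacking *Nova1*. They were chosen from a table of 539 genes because at least 1 of their events passed the study's thresholds in *Nova2-/-* cortex and again in *Nova1-/-* cortex, with the opposite sign. All of their 22 events are described here, out of 1991 in the table, together with the RNA level of each gene in every mouse. RNA was sequenced from cortex at embryonic day 18.5 of 12 mice, which fall into 4 groups of 3 mice on the CD1 strain background: *Nova2-/-* mice, their wild-type littermates, *Nova1-/-* mice and their wild-type littermates. RNA from the midbrain and hindbrain of the *Nova1* litters was sequenced too, and of these regions only the splicing values were analysed here. In the *Nova2-/-* allele an IRES-Cre insertion lies ahead of the start codon, in the exon that carries it, and the neomycin cassette was removed by Flp recombinase. The labels give the numbers 1 to 3 to one set of wild-type cortices and 4 to 6 to the other, and they were placed with the *Nova2* and the *Nova1* litters because numbers 4 to 6 alone also have midbrain and hindbrain samples, as the *Nova1* litters do.

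NOVA1 and NOVA2 are closely related RNA-binding proteins of neurons that bind clusters of the motif YCAY, where Y is C or U, in precursor mRNA. Where they bind decides what they do: binding downstream of an exon generally favours its inclusion, and binding in the exon or just upstream of it generally favours skipping. NOVA2 is the main family member in the developing neocortex, whereas NOVA1 is most abundant in midbrain, hindbrain and spinal cord. An exon that brings in a stop codon ahead of the last exon junction can expose its mRNA to nonsense-mediated decay, and many genes of splicing factors carry such exons.

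The 7 genes encode 3 proteins of splicing and 4 of other functions. *Luc7l* encodes a relative of a yeast protein of the U1 small nuclear ribonucleoprotein, which recognises 5' splice sites. *Tia1* encodes an RNA-binding protein that binds uridine-rich sequence next to 5' splice sites and helps to recruit U1. *Rbm39* encodes a splicing factor related to the large subunit of U2AF, the protein that binds 3' splice sites. *Cnot2* encodes a scaffold subunit of the CCR4-NOT complex, which shortens poly(A) tails. *Rnf111* encodes Arkadia, a ubiquitin ligase that strengthens TGF-beta signalling by removing its inhibitors. *Phf20* encodes a subunit of the NSL histone acetyltransferase complex, and *Cep170* encodes a protein of the appendages of the mother centriole that binds microtubules.

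The exons that changed could be placed exactly for 5 of the genes, from the offsets in the event names and the exons of the mm9 annotation, and 4 of them are printed with the intron on either side because their length, reading frame and YCAY motifs differ. Sequences run 5' to 3' on the transcribed strand, the last and the first 60 bases of the neighbouring introns are shown, and capitals mark YCAY, searched as TCAT or TCAC (T first) and as CCAT or CCAC (C first) on that strand alone. The *Luc7l* exon lies at chr17:26390919-26390989 on the plus strand and has 71 bases.
*Luc7l*, intron before: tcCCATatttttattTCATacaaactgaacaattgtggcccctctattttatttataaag
*Luc7l*, exon: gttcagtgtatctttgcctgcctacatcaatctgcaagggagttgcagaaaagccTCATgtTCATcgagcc
*Luc7l*, intron after: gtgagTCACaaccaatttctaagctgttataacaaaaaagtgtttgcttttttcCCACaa
In the annotation this exon is part of 1 transcript, Luc7l-001, which is classed as a target of nonsense-mediated decay, and of 0 of 6 protein-coding transcripts. Its length is not a multiple of 3, and the reading frame of Luc7l-001, in which it is exon 2, ends at a TAG in exon 4 after 79 codons.

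The *Rbm39* exon has 73 bases, at chr2:156004616-156004688 on the minus strand, and it too is absent from the protein-coding transcripts.
*Rbm39*, intron before: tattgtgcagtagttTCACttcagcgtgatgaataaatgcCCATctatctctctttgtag
*Rbm39*, exon: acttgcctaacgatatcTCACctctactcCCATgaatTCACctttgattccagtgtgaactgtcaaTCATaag
*Rbm39*, intron after: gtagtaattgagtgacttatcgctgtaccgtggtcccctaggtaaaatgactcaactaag
It belongs to 4 of 8 *Rbm39* transcripts classed as targets of nonsense-mediated decay and to 0 of 8 protein-coding ones. The frame that enters it meets a TAA at base 70 of the exon itself, after 40 codons.

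The *Tia1* exon, with 33 bases at chr6:86369095-86369127 on the plus strand, keeps the reading frame. It is coding sequence in 3 of 6 protein-coding transcripts, and the frames that pass through it end in exons further downstream.
*Tia1*, intron before: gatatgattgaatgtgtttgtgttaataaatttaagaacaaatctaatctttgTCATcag
*Tia1*, exon: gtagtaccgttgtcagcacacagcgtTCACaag
*Tia1*, intron after: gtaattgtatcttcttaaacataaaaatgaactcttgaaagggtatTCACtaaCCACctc
The *Cnot2* exon, with 80 bases at chr10:115941091-115941170 on the minus strand, is coding sequence in 9 of 10 protein-coding transcripts and is not a multiple of 3 in length.
*Cnot2*, intron before: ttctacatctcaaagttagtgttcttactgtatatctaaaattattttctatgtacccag
*Cnot2*, exon: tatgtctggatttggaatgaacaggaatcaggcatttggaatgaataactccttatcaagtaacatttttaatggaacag
*Cnot2*, intron after: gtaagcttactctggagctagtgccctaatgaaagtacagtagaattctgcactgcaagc
In *Rnf111* the alternative exon is an untranslated one of 63 bases, at chr9:70350747-70350809 on the minus strand, and it is part of both protein-coding transcripts.

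The 5 exons therefore comprise 2 coding exons, 2 exons found in transcripts of nonsense-mediated decay but not in protein-coding ones, and 1 untranslated exon. Of 360 cassette exons of the whole table placed in the same way, 290 were coding (80.6%), 11 were of the nonsense-mediated decay class (3.06%) and 18 were untranslated (5.0%). These shares describe the table, and 5 exons are too few to set against them.

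YCAY motifs were counted in each exon and the 200 bases on either side of it. The *Luc7l* window held 7 motifs upstream, 2 in the exon and 2 downstream, a density of 23.4 motifs per kilobase, and the *Tia1* window held 3, 1 and 4, or 18.5 per kilobase. In the *Rbm39* window 3 motifs lay upstream, 4 in the exon and 0 downstream, or 14.8 per kilobase. *Rnf111* had 1 motif upstream, 0 in the exon and 5 downstream, or 13.0 per kilobase. The *Cnot2* window held a single motif, 176 bases before the exon, or 2.08 per kilobase, the lowest density among the 360 windows. The median of the 360 windows was 19.1 per kilobase, and 100% of them held at least 1 motif, with 96.4% holding one upstream, 70.8% in the exon and 95.6% downstream. The study kept events with YCAY inside regions bound by NOVA1 or NOVA2, so motifs near these exons follow in part from how the table was made, and a motif here is a match of letters and not a binding site.

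**Figure D1:**
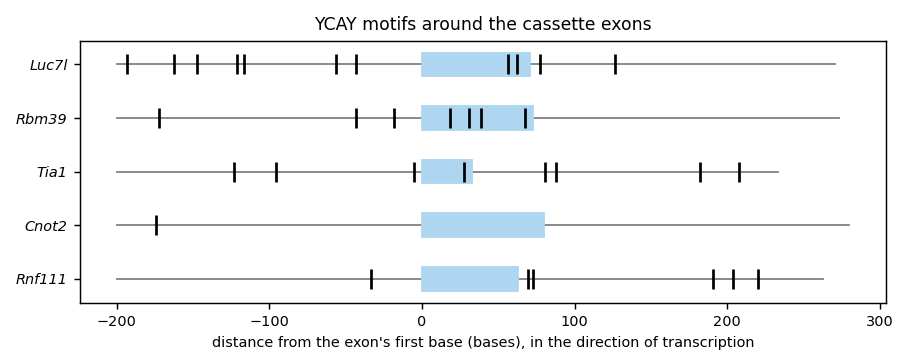
YCAY motifs (black ticks) around the cassette exons (blue boxes) of 5 genes, with the distance in bases from the first base of each exon and 200 bases of intron (grey lines) on either side. *Rbm39* has 4 motifs inside its exon and none downstream, *Rnf111* has 5 downstream, and *Cnot2* has a single one, at -176.

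Splicing was followed as ΔI, the fraction of transcripts that include the alternative part in wild-type minus that fraction in the knockout, so that values above 0 stand for lower inclusion in the mutant mice. The deposited table gives 1 value of ΔI and its FDR, an adjusted p-value, per event and comparison for pooled mice. The values have no spread between mice and no read counts, so their depth is unknown and no test was made on them here. An event was counted as changed at the study's thresholds, a |ΔI| of at least 0.1 and an FDR below 0.1. Because ΔI and FDR in *Nova2-/-* and *Nova1-/-* cortex chose the genes, those values are a description. The values in *Nova1-/-* midbrain and hindbrain did not enter the choice, although the wild-type and knockout mice carry the same numbers in both regions and may be the same animals.

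Among the genes of splicing factors, *Luc7l* had 4 events, all between the same flanking exons at chr17:26389855-26392070. Its cassette exon had a ΔI of 0.258 in *Nova2-/-* cortex (FDR 0.000245), of -0.179 in *Nova1-/-* cortex (FDR 6.91e-05) and of -0.153 in *Nova1-/-* midbrain and hindbrain (FDR 1.24e-07). The exon of the nonsense-mediated decay transcript was thus included less without *Nova2* and more without *Nova1*, in both regions. An alternative 3' splice site of the same span had 0.281, -0.160 and -0.147 in the same order, and the pair of tandem cassette events had 0.167 and 0.168, then -0.156 in both, then -0.108 and -0.110. All 4 events passed both thresholds in midbrain and hindbrain.

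*Rbm39* had 1 event, the cassette exon printed above, in the span chr2:156003072-156004976. Its ΔI was 0.123 in *Nova2-/-* cortex (FDR 0.000347) and -0.101 in *Nova1-/-* cortex (FDR 0.000191). In *Nova1-/-* midbrain and hindbrain it was -0.0911 (FDR 1.97e-05), of the *Nova1-/-* cortex sign and just under the threshold for size. As with the *Luc7l* exon, the *Rbm39* exon was included less without *Nova2* and more without *Nova1*.

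*Tia1* had 5 events in the span chr6:86368872-86370405. The cassette exon of 33 bases had a ΔI of 0.179 in *Nova2-/-* cortex and of -0.0996 in *Nova1-/-* cortex (FDR 0.0858), just under the threshold for size. The 4 tandem cassette events had values from 0.190 to 0.194 in *Nova2-/-* cortex and from -0.145 to -0.140 in *Nova1-/-* cortex. In midbrain and hindbrain they lay between -0.121 and -0.119, and 1 of the 4 passed both thresholds, with an FDR of 0.0856 against 0.102 to 0.119 for the others. All 5 kept the sign of *Nova1-/-* cortex.

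*Cnot2* had 3 events in the span chr10:115938248-115954439. The cassette exon of 80 bases had a ΔI of 0.121 in *Nova2-/-* cortex, -0.145 in *Nova1-/-* cortex and -0.133 in *Nova1-/-* midbrain and hindbrain (FDR 0.0498). A further cassette event had 0.143, -0.147 and -0.146, and a tandem event, in which the exon is joined by one of 148 bases at chr10:115944097-115944244, had 0.123, -0.128 and -0.117. All 3 passed both thresholds in all 3 comparisons. A separate alternative 3' splice site near the 5' end of the gene, in the span chr10:115986089-116018556, went the other way, with -0.145 in *Nova2-/-* cortex, 0.107 in *Nova1-/-* cortex (FDR 0.289) and 0.0559 in midbrain and hindbrain.

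In *Rnf111*, whose product acts in TGF-beta signalling, the 5' untranslated region was affected. The untranslated exon had a ΔI of 0.191 in *Nova2-/-* cortex (FDR 0.0470) and of -0.252 in *Nova1-/-* cortex (FDR 0.0193), the lowest value of the 22 events there. A tandem event of the same region had 0.152 and -0.234. In midbrain and hindbrain both values kept the *Nova1-/-* cortex sign but were smaller, -0.0913 (FDR 0.202) and -0.0243 (FDR 0.103), and neither passed.

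*Phf20* and *Cep170* had mostly more inclusion without *Nova2*. The span chr2:156077512-156098391 of *Phf20* holds annotated coding exons of 85, 80 and 388 bases, none a multiple of 3. Its tandem event had a ΔI of -0.176 in *Nova2-/-* cortex and 0.159 in *Nova1-/-* cortex (FDR 0.0905). The cassette events of *Phf20* had -0.115 and -0.148 in *Nova2-/-* cortex, and 0.0969 (FDR 0.0944) and 0.0711 (FDR 0.639) in *Nova1-/-* cortex, so that both lay outside the thresholds there. In midbrain and hindbrain the 3 events of *Phf20* had values from 0.0449 to 0.0705, with the sign of *Nova1-/-* cortex and FDR from 0.496 to 0.525.

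In *Cep170* a tandem event in the span chr1:178688528-178699657, which holds an annotated coding exon of 150 bases, had a ΔI of -0.127 in *Nova2-/-* cortex and of 0.101 in *Nova1-/-* cortex (FDR 0.0125), just inside the threshold. In midbrain and hindbrain it was -0.00947. A pair of alternative 5' splice site events in the span chr1:178670050-178672779 had opposite signs to each other, -0.118 and 0.103 in *Nova2-/-* cortex, with 0.0367 and -0.0249 in *Nova1-/-* cortex and -0.0253 and 0.0498 in midbrain and hindbrain. The 3 events of *Cep170* were the only ones of the 22 whose midbrain and hindbrain value had the sign of *Nova2-/-* cortex.

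**Figure D2:**
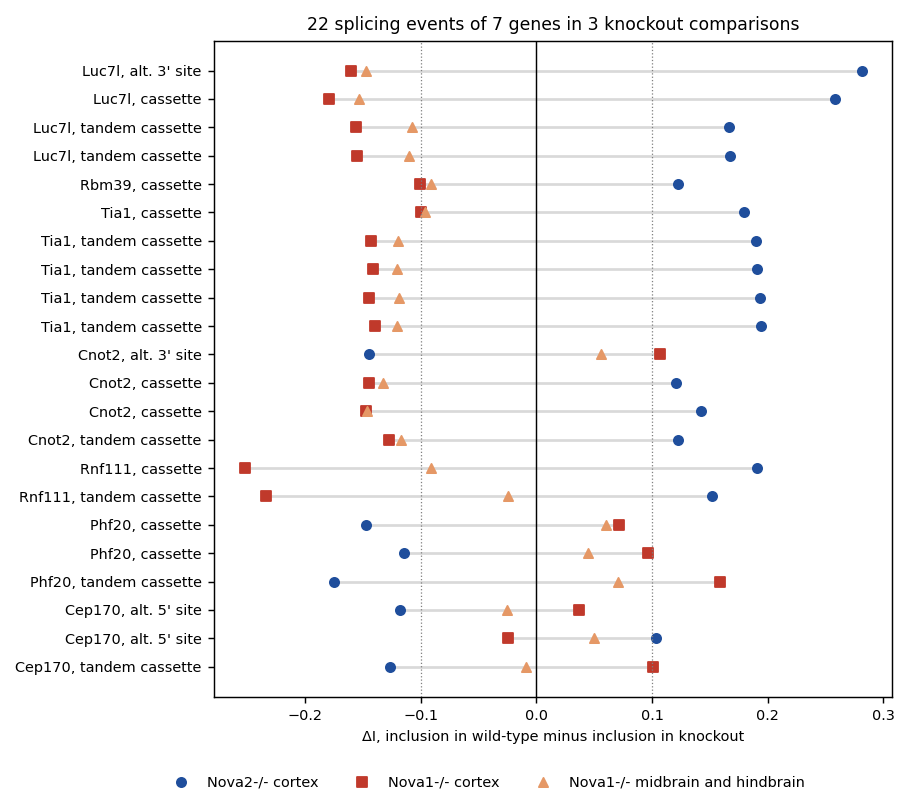
ΔI of the 22 events of the 7 genes (rows) in *Nova2-/-* cortex (blue circles), *Nova1-/-* cortex (red squares) and *Nova1-/-* midbrain and hindbrain (orange triangles), with 1 deposited value each and dotted lines at 0.1 and -0.1. Circles and squares lie on opposite sides of 0 in each row. The choice of the genes fixed this for 16 of the 22, and some of the other events share spans with those 16. The triangles lie on the side of the squares in 19 rows and on the side of the circles in the 3 rows of *Cep170*.

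Over the 22 events, the median |ΔI| was 0.159 in *Nova2-/-* cortex, 0.142 in *Nova1-/-* cortex and 0.102 in *Nova1-/-* midbrain and hindbrain. In the other 1969 events of the table the medians were 0.225, 0.0336 and 0.0372. The choice of the genes asked for a |ΔI| of at least 0.1 in *Nova1-/-* cortex, so the gap there follows in part from it. In *Nova1-/-* cortex 16 of the 22 events passed both thresholds, where 18 of the 1984 events with a value there did (0.907%), and this count was fixed by the choice of the genes. The other 6, of *Cep170*, *Cnot2*, *Phf20* and *Tia1*, did not pass and were opposite in sign as well, against 56.0% of the events with a value. The *Tia1* event and the *Phf20* event with 0.0969 in *Nova1-/-* cortex share the span of an event that chose their gene. The *Phf20* event with 0.0711 starts at the same base, and the *Cep170* events are a pair in the same span. Their signs are thus in part tied to the choice and to each other, and they are a description from the same comparisons. The other 2 of the 18 belong to *Camk2g*, which encodes a calcium- and calmodulin-dependent kinase subunit. They are mutually exclusive exon events in the span chr14:21563826-21574924 and had the same sign in both cortices, with 0.122 and 0.240 in *Nova2-/-* and 0.111 and 0.136 in *Nova1-/-*.

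In midbrain and hindbrain, which the choice did not use, 8 of the 22 events passed both thresholds, 4 of *Luc7l*, 3 of *Cnot2* and 1 of *Tia1*, against 119 of 1991 in the table (5.98%). The 8 were opposite in sign to *Nova2-/-* cortex. Of the 119 events that passed in the table, 34 on 14 genes were opposite, the 8 among them, which is 1.71% of the 1991 events. The other 85 of the 119 had the sign of *Nova2-/-* cortex. Taken without thresholds, 19 of the 22 events (86.4%) had the sign of *Nova1-/-* cortex in midbrain and hindbrain, against 56.7% of the other events with a value. Among the 1258 other events whose |ΔI| in *Nova2-/-* cortex lay in the same range as that of the 22, the share was 55.1%, and 70 passed in midbrain and hindbrain (5.56%). Their median |ΔI| in *Nova1-/-* cortex was 0.0300, against 0.142 for the 22. The choice of the genes used the size in *Nova1-/-* cortex, and neither set of other events is matched for it. The part of that size in these shares was not tested. The events are not independent, since the 22 lie on 11 distinct spans, so the shares are given with no p. With 1 event per span, the one with the largest |ΔI| in *Nova1-/-* cortex, 2 of 11 passed in midbrain and hindbrain, those of *Luc7l* and *Cnot2*. The other spans of the table were not counted in this way, so the shares per event above are not a base for it.

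The other 11 genes with an event that passed in midbrain and hindbrain and was opposite to *Nova2-/-* cortex were *Atp2c1*, *Atxn2*, *Cdkl3*, *Cnksr2*, *Dnm1l*, *Golt1b*, *Kdm3b*, *Lrch2*, *Mtmr1*, *Oprl1* and *Polb*. In *Nova1-/-* cortex 0 events of these 11 genes passed. Outside the 7 genes, the events with the largest opposite values in the cortices, ranked by the smaller |ΔI| of the pair, were those of *Fam193b* with -0.391 and 0.276, *Mical3* with -0.245 and 0.269, *Mknk1* with -0.232 and 0.227, *Epb4.1l2* with 0.463 and -0.211, and *Mpped1* with 0.376 and -0.211. Their FDR in *Nova1-/-* cortex ran from 0.256 to 1.0, so none of these 5 events passed. In *Nova1-/-* cortex their |ΔI| lay above that of the passing events of the 7 genes other than *Rnf111*.

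**Figure D3:**
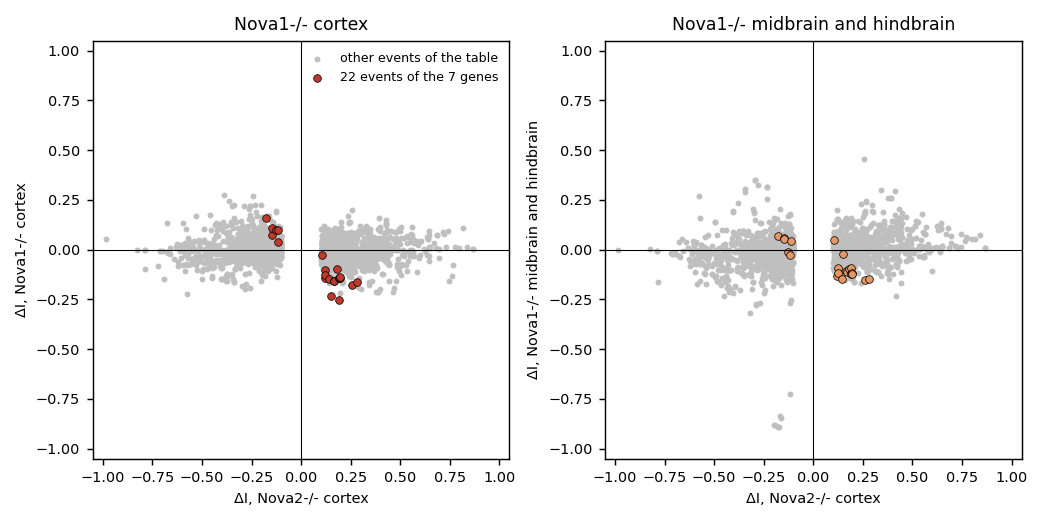
ΔI in *Nova2-/-* cortex (x axis) against ΔI in *Nova1-/-* cortex (left) and in *Nova1-/-* midbrain and hindbrain (right), 1 point per event, with the 22 events of the 7 genes coloured and the other events grey. The events of the 7 genes lie in the quadrants of opposite sign on the left, 16 of them because they chose the genes, and 19 of the 22 stay there on the right. The gap around 0 on the x axis is the study's threshold of 0.1.

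The RNA level of the 7 genes was then compared between each knockout and its littermates. Levels are CPM, the deposited expected counts scaled to a common library size with edgeR's TMM factors, and log2 fold changes are knockout over wild-type from the quasi-likelihood test of edgeR, with p-values adjusted over all genes tested by the Benjamini-Hochberg method. Total counts ran from 16518172 to 31362018 per mouse, and wild-type replicate 2 of the *Nova2* litters stood apart, with the lowest total and 21791 genes with a count, against 18397 to 19396 in the other mice. *Nova1* had from 0.0341 to 0.211 CPM in *Nova1-/-* cortex and from 41.5 to 75.8 in its littermates, and *Nova2* fell by 0.87 on the log2 scale in *Nova2-/-* cortex (standard error 0.14, adjusted p = 0.0373 by edgeR). The 6 fits that each omitted 1 mouse gave *Nova2* values from -0.98 to -0.73, and edgeR's adjusted p ranged from 0.00910 to 0.186, missing the threshold of 0.05 in 5 of them. *Nova2* RNA was thus still present in *Nova2-/-* cortex, with a mean of 18.8 CPM ± 2.36 (SD, n = 3). NOVA2 protein was absent from *Nova2-/-* cortex on the study's Western blots at birth, so this RNA does not stand for remaining protein. In RNA from tissue, fewer cells of a type and less RNA per cell cannot be told apart.

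The cells of the samples were checked with marker genes. The 10 markers of cortical neurons and progenitors summed to 1097 to 1252 CPM in *Nova2-/-* mice and 1072 to 1237 CPM in their littermates, and 9 of 10 markers of midbrain and hindbrain did not reach the filter on low counts. The 15 markers of meningeal fibroblasts summed to 1128 to 1321 CPM in *Nova2-/-* mice against 362 to 808 CPM in their littermates, and 4 of the 15 passed an adjusted p of 0.05 by edgeR, all higher. In the *Nova1* litters this sum was 911 to 1053 CPM in knockout and 1027 to 1257 CPM in wild-type mice. The 9 markers of endothelial and mural cells summed to 333 to 354 CPM in *Nova2-/-* mice and 226 to 289 CPM in their littermates, with 1 of the 9 past the threshold, higher. The 9 markers of microglia and macrophages summed to 124 to 154 CPM in *Nova2-/-* mice and 84.6 to 116 CPM in their littermates, again without overlap. Of the 9, 0 passed and only 4 were higher in *Nova2-/-* mice, with a median log2 fold change of -0.021. In the *Nova1* litters the sum of these 9 was 134 to 148 CPM in knockout and 151 to 154 CPM in wild-type mice. None of these markers was at 0 in all mice, and their part in the level of *Rnf111* or of the other genes was not tested.

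None of the 7 genes passed an adjusted p of 0.05 in either knockout. In *Nova2-/-* cortex 0 of 7 passed, against 166 of 15691 genes tested (1.06%), and in *Nova1-/-* cortex 0 of 7, against 2 of 15901 (0.0126%). Before adjustment, 1 of the 7 and 3005 of all genes had a p below 0.05 in *Nova2-/-* cortex, and 0 of the 7 and 1183 of all genes in *Nova1-/-* cortex. By DESeq2 the counts were 832 and 33 of all genes, and again 0 of the 7 in both. The median log2 fold change of the 7 was -0.0058 and -0.026, against 0.0092 and 0.0018 over all genes.

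*Luc7l* had 221, 224 and 189 CPM in wild-type littermates of *Nova2-/-* mice, and 204, 222 and 198 CPM in the knockouts. In the *Nova1* litters it had 209, 209 and 208 CPM in wild-type and 192, 205 and 219 CPM in *Nova1-/-* mice. The groups overlapped in both comparisons. The log2 fold change was -0.02 in *Nova2-/-* cortex (95% interval -0.21 to 0.17) and -0.03 in *Nova1-/-* cortex (95% interval -0.15 to 0.10).

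*Rbm39* had 490, 448 and 460 CPM in wild-type littermates of *Nova2-/-* mice, and 465, 488 and 444 CPM in the knockouts. Its levels were 450, 430 and 414 CPM in wild-type littermates of *Nova1-/-* mice, and 403, 449 and 487 CPM in the knockouts, which held both the lowest and the highest of these 6 values. The log2 fold change was 0.0028 (95% interval -0.15 to 0.15) and 0.05 (95% interval -0.10 to 0.20).

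*Tia1* had 244, 245 and 190 CPM in the wild-type mice of the *Nova2* litters, where replicate 3 was low, and 246, 245 and 242 CPM in *Nova2-/-* mice. The log2 fold change of 0.12 (95% interval -0.11 to 0.34) came down to 0.0025 without wild-type replicate 3. In *Nova1-/-* cortex it was 0.03 (95% interval -0.11 to 0.17). *Cnot2* had 160 to 173 CPM in wild-type and 144 to 164 CPM in *Nova2-/-* mice, and 163 to 180 CPM in wild-type and 170 to 191 CPM in *Nova1-/-* mice. Its log2 fold changes were -0.09 (95% interval -0.24 to 0.07) and 0.08 (95% interval -0.05 to 0.21). *Cnot2* shares 59 of its 3732 exonic bases with an antisense gene, *5330438D12Rik*, and the library kit does not mark strand, so reads there cannot be told apart.

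*Rnf111* had the largest log2 fold change of the 7 in *Nova2-/-* cortex. It had 76.5, 82.8 and 72.5 CPM in wild-type mice and 87.6, 85.4 and 93.8 CPM in *Nova2-/-* mice, so that each *Nova2-/-* mouse was above each littermate. The log2 fold change was 0.21 (standard error 0.08, unadjusted p = 0.0346, adjusted p = 0.227 by edgeR), which does not pass. Groups that did not overlap were found for 25.9% of all genes in this comparison. In the *Nova1* litters it had 78.9, 76.8 and 75.0 CPM in wild-type and 75.7, 76.2 and 68.3 CPM in *Nova1-/-* mice, with overlap and a log2 fold change of -0.07 (95% interval -0.20 to 0.07).

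*Phf20* had 159 to 198 CPM in wild-type and 173 to 184 CPM in *Nova2-/-* mice, and *Cep170* had 827 to 927 and 782 to 869 CPM. Their log2 fold changes in *Nova2-/-* cortex were -0.0058 (95% interval -0.20 to 0.18) and -0.06 (95% interval -0.22 to 0.11). In the *Nova1* litters each knockout mouse was below each wild-type mouse for both genes, with 161 to 167 against 168 to 177 CPM for *Phf20* and 767 to 789 against 804 to 838 CPM for *Cep170*. Groups that did not overlap were found for 13.4% of all genes in this comparison. The log2 fold changes were -0.08 (adjusted p = 0.772 by edgeR) and -0.06 (adjusted p = 0.813 by edgeR), and neither passes. *Rbm39* and *Phf20* are neighbours on chromosome 2, 16227 bases apart and transcribed away from each other.

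**Figure D4:**
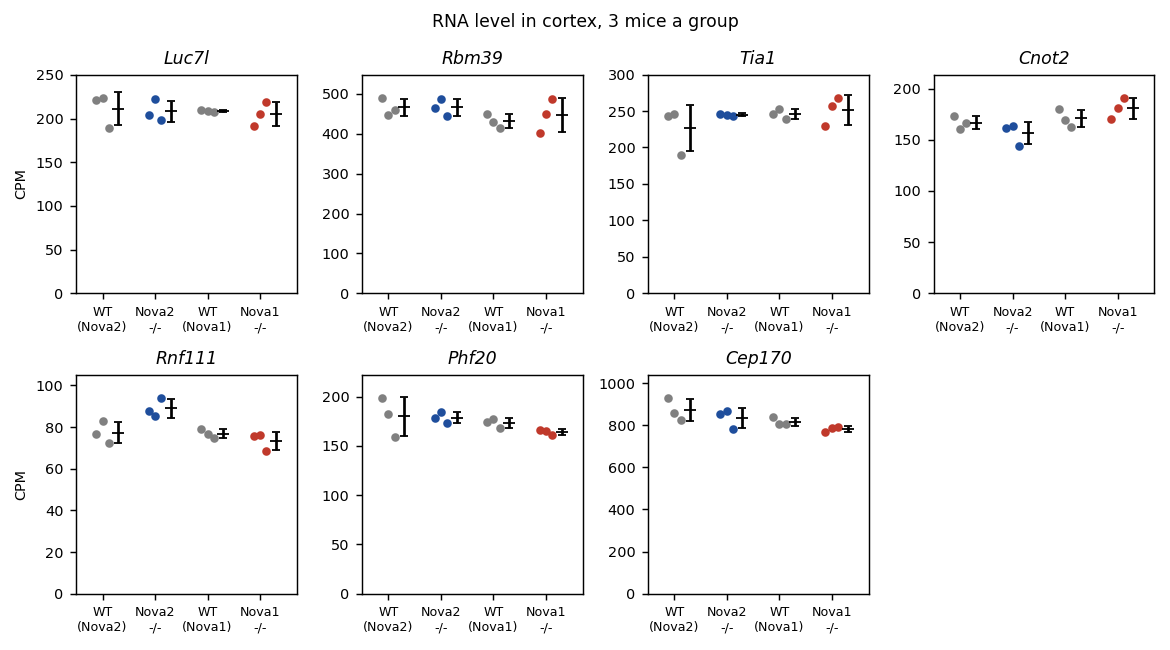
RNA level in CPM (y axes from 0) of the 7 genes in cortex, 1 point per mouse, with the mean and SD of 3 mice as a black bar beside each group; WT (Nova2) and WT (Nova1) are the wild-type littermates of each knockout. *Rnf111* is the gene whose *Nova2-/-* mice all lie above their littermates, and *Phf20* and *Cep170* are the genes whose *Nova1-/-* mice all lie below theirs.

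Whether the change in level differed between the knockouts (*Nova2-/-* minus *Nova1-/-*) was tested over all 12 mice. None of the 7 genes passed, against 296 of 16210 genes tested (1.83%) by edgeR, and before adjustment 1 of the 7 and 2950 of all genes had a p below 0.05. DESeq2 called 838 of all genes and 0 of the 7. *Rnf111* had the largest difference, 0.26 on the log2 scale (standard error 0.10, unadjusted p = 0.0203, adjusted p = 0.182 by edgeR), followed by *Cnot2* with -0.18 (95% interval -0.38 to 0.02). For *Luc7l* the difference was -0.0054 (95% interval -0.23 to 0.22), for *Rbm39* -0.06 (95% interval -0.28 to 0.16) and for *Tia1* 0.07 (95% interval -0.20 to 0.35). No difference between the changes in RNA level was detected for the 7 genes at this adjusted p.

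**Figure D5:**
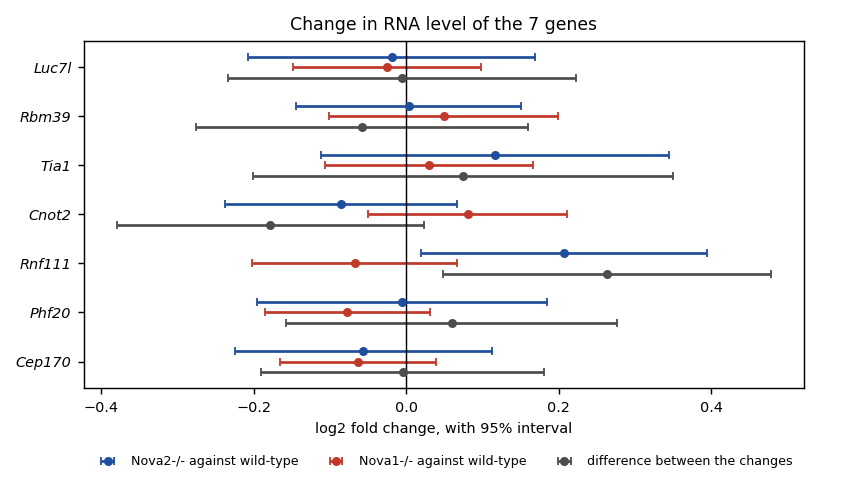
Log2 fold change of RNA level (x axis, points) with its 95% interval (bars) for the 7 genes in *Nova2-/-* cortex (blue), in *Nova1-/-* cortex (red) and for the first minus the second (grey). The intervals of *Rnf111* in *Nova2-/-* cortex and for the difference lie above 0 before adjustment for the number of genes, and the other intervals contain 0.

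Genes that work with the 7 proteins were followed as lists, and the 7 genes themselves are among those listed. Among 13 genes of the U1 particle and its partners, 13 of the U2AF and 3' splice site group, 20 of the SR proteins and their kinases and 14 of the CCR4-NOT complex, 0 passed in either knockout. In *Nova2-/-* cortex the median log2 fold changes of these lists were 0.04, -0.03, 0.05 and 0.0031. Among 10 genes of the NSL complex, 14 of TGF-beta signalling and 8 of the centriole appendage group tested in *Nova2-/-* cortex, with 9 of the last in *Nova1-/-* cortex, 0 passed in either knockout as well, with medians of 0.03, 0.10 and -0.0027 in *Nova2-/-* cortex. Among 26 tissue-enriched regulators of splicing, the targeted genes themselves passed, *Nova2* in *Nova2-/-* and *Nova1* in *Nova1-/-* cortex, and no other gene did. Before adjustment, the U1, 3' splice site, SR protein and CCR4-NOT lists had 3, 2, 3 and 1 genes with a p below 0.05 in *Nova2-/-* cortex and 0, 0, 3 and 1 in *Nova1-/-* cortex. The NSL, TGF-beta, centriole and splicing regulator lists had 1, 5, 0 and 3 in *Nova2-/-* cortex and 1, 2, 0 and 3 in *Nova1-/-* cortex. *Rnf111* itself is 1 of the 5. Over all genes tested these counts were 3005 of 15691 and 1183 of 15901. The shares of all genes past the adjusted p, 1.06% and 0.0126%, leave few calls to be found in lists of this size.

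Of the partners, 13 of 118 genes had 51 events in the splicing table, 7 of them of *Nova1* itself, and 0 of these events passed in midbrain and hindbrain, against 5.98% of all events. The values below are those of the event with the largest |ΔI| in *Nova2-/-* cortex. *Nktr* and *Rbm25* of the U1 list had retained introns with a ΔI of -0.154 and -0.173 in *Nova2-/-* cortex and of -0.0157 and -0.0613, the same sign, in *Nova1-/-* cortex. *Clk4*, a kinase of SR proteins, had a cassette event with -0.212 and -0.0361. *Smad2* and *Smad4*, which carry the TGF-beta signal to the nucleus, had 0.214 and -0.286 in *Nova2-/-* and 0.0437 and -0.0403 in *Nova1-/-* cortex. Among the other regulators of splicing, *Rbfox2* had a cassette event with 0.309 in *Nova2-/-* and -0.103 in *Nova1-/-* cortex, where its FDR was 0.904. *Celf2* and *Rbfox1* kept the same sign, with 0.370 and 0.129 in *Nova2-/-* and 0.0341 and 0.0405 in *Nova1-/-* cortex. *Celf1* and *Elavl2*, with -0.182 and 0.203 in *Nova2-/-* cortex, were near 0 in *Nova1-/-* cortex, at 0.000304 and -0.000698. Over all 31 events of the splicing regulators, 18 were opposite in sign in *Nova2-/-* and *Nova1-/-* cortex, against 56.0% of the table's events with a value. The 31 hold the 7 of *Nova1*, whose event of largest |ΔI| has no value in *Nova1-/-* cortex. Without the 7 genes, the U1 and SR protein lists had 0 of 4 and 0 of 2. The NSL, TGF-beta and centriole lists had 1 of 1, 2 of 11 and 2 of 2. *Ogt* and *Kif2a*, partners of *Phf20* and *Cep170*, had -0.293 and 0.179 in *Nova2-/-* and 0.00493 and -0.0177 in *Nova1-/-* cortex.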

How the data were processed

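RNA was extracted with Trizol, depleted of ribosomal RNA and made into TruSeq libraries, and the authors aligned the paired-end reads to mm10 with OLego. The authors deposited a table of unnormalized expected counts for the gene symbols in the 12 cortex mice (3 a group), with their own edgeR log2 fold changes and FDR values, which were not used. The counting program is not given in the sources used here. The authors also deposited, per splicing event, ΔI, a score from -1 to 1, and its FDR, an adjusted p-value, 1 value for each comparison, with coordinates converted from mm10 to mm9. Each of these values combines the replicates of its comparison, and the table was selected at the thresholds in *Nova2-/-* cortex and for YCAY in bound regions.

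Expected counts were rounded. Each knockout was compared with its littermates with edgeR 4.0.16 in R 4.3.3 (TMM, filterByExpr, quasi-likelihood test, Benjamini-Hochberg, adjusted p of 0.05), and the changes were compared in a fit of all 12 mice. P-values measure the spread between these mice. In simulated counts the tests recovered most of the changed genes. Alternatives were upper-quartile scaling, DESeq2 1.42.0, other filters, a fold threshold, a replicate block, each mouse left out, other ΔI and FDR thresholds and 1 event per span. Exons came from offsets in event names and GENCODE annotation on mm9. Starts count from 1, since 87.8% of deposited starts match an exon start with 1 added and 0.854% without. The sign of ΔI was checked on *Neo1* and *Arhgef12*, whose inclusion the study describes as higher in *Nova2-/-* cortex. Of 393 cassette events with offsets, 373 were placed. Tables were handled with Python 3.11.15 and pandas 2.3.3, sequences with pyfaidx 0.9.0.4 and figures with matplotlib 3.10.9.

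The 7 genes, the lists and the markers were chosen with earlier results of these data known. The genes named are these 7, *Nova1* and *Nova2*, list genes past an adjusted p of 0.05 in either knockout, and the 5 other genes with the largest opposite ΔI. The 11 genes opposite in midbrain and hindbrain, *Camk2g*, the list genes with events and those that passed the comparison of the changes were named after their values were seen. RNA levels in midbrain and hindbrain were not analysed here.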

Additional observations from a re-analysis of the deposited data

Results flagged for a closer look

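Among the genes of the lists, 5 had a change in *Nova2-/-* cortex that differed from the change in *Nova1-/-* cortex past an adjusted p of 0.05 in edgeR's quasi-likelihood test of the difference with Benjamini-Hochberg adjustment, and they are given as values. Of these, *Nova1* had a difference of 9.15 on the log2 scale and *Nova2* of -0.98, each being the targeted gene of 1 of the knockouts. *Tgfbr2*, a receptor of TGF-beta, had a difference of 0.96 (standard error 0.21, adjusted p = 0.0330 by edgeR), with 0.68 in *Nova2-/-* and -0.29 in *Nova1-/-* cortex, neither past the threshold alone. The summed markers of meningeal fibroblasts moved in the same directions, and their part in this value was not tested. *Rnf165*, a relative of *Rnf111*, had a difference of -0.70 (standard error 0.16, adjusted p = 0.0425 by edgeR), with -0.55 and 0.13. *Mcrs1*, which encodes a subunit of the NSL complex, had a difference of -0.43 (standard error 0.10, adjusted p = 0.0456 by edgeR), with -0.29 and 0.13. With each of the 12 mice left out in turn, the last 3 genes kept their direction, but each had an adjusted p above 0.05 in 10 of the 12 fits, and *Nova2* in 7 of the 12 fits. With no filter on low counts *Mcrs1* had an adjusted p of 0.0592 by edgeR.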

How the results depend on the processing

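None of the 7 genes passed in either knockout or in the comparison of the changes under any alternative run, and the lowest adjusted p was 0.0981, for *Rnf111* in the comparison of the changes with 1 mouse left out. Of 259 log2 fold changes of the 7 genes under the alternatives, 222 kept their side of 0, and the 37 that did not belong to genes near 0. In *Nova2-/-* cortex *Phf20* was at 0.0031 with upper-quartile scaling and 0.0012 with no filter, and *Rbm39* at -0.0041 by DESeq2. In the comparison of the changes *Cep170* was at 0.014 and 0.0032 and *Luc7l* at 0.013 and 0.0034 with these scaling and filter settings. With each mouse left out, the ranges in *Nova2-/-* cortex were -0.094 to 0.032 for *Luc7l*, -0.089 to 0.063 for *Phf20* and -0.043 to 0.033 for *Rbm39*. In *Nova1-/-* cortex they were -0.073 to 0.024 for *Luc7l*, -0.017 to 0.12 for *Rbm39* and -0.017 to 0.096 for *Tia1*. The other NOVA gene ranged from -0.029 to 0.25 for *Nova1* in *Nova2-/-* cortex and from -0.069 to 0.22 for *Nova2* in *Nova1-/-* cortex. For the comparison of the changes the ranges were -0.032 to 0.056 for *Cep170*, -0.071 to 0.065 for *Luc7l*, -0.014 to 0.14 for *Phf20*, -0.12 to 0.012 for *Rbm39* and -0.030 to 0.16 for *Tia1*. The cause was not tested.

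Counts over all genes moved more. Against 166, 2 and 296 genes in *Nova2-/-* cortex, *Nova1-/-* cortex and the comparison of the changes, DESeq2 called 832, 33 and 838. A fold threshold (log2 of 1 or more) left 41 in *Nova2-/-* cortex and 113 in the comparison of the changes, and at least 10 counts in every mouse left 1 in *Nova1-/-* cortex. With each mouse left out they ranged from 7 to 1433, from 1 to 10 and from 113 to 1005, with both upper values of the first and last without wild-type replicate 3 of the *Nova2* litters. Without wild-type replicate 2, which stood apart, 26 genes passed in *Nova2-/-* cortex. Numbers 1 to 3 are shared by *Nova2-/-* mice and their littermates, and the labels do not say whether the numbers pair them. The deviations of same-numbered mice from their group means had correlations of 0.130, 0.0476 and 0.218 across genes. For mice of different numbers the mean correlation was -0.0633. With the replicate block 220 genes passed and 0 of the 7. No paired analysis was possible in the *Nova1* litters because the groups share no replicate numbers.

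At a |ΔI| of at least 0.2, 2 events of 1 gene passed in *Nova1-/-* cortex and 0 in midbrain and hindbrain. With 1 event per span, 8 and 2 passed, in place of 16 and 8, because several events share a span. An FDR below 0.05 left 11 and 7, and a |ΔI| of at least 0.05 gave 18 and 9. These counts were made for the 7 genes alone, with no share of the whole table at the same settings. The depth behind ΔI is unknown.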

Other observations

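Exons found in transcripts of nonsense-mediated decay but not in protein-coding ones were looked at over the whole table, since *Luc7l* and *Rbm39* carry one each. There were 11 such exons on 11 genes among the 360 cassette exons placed, with a median length of 139 bases, and 3 of the 11 were a multiple of 3 in length. Their median ΔI was 0.157 in *Nova2-/-* cortex, with 8 of 11 included less in the knockout against 190 of all 360 exons, -0.018 in *Nova1-/-* cortex and -0.0013 in *Nova1-/-* midbrain and hindbrain. In 6 of 11 the signs in *Nova2-/-* and *Nova1-/-* cortex were opposite, against 190 of the 360 exons for this count too. The 290 coding exons had a median ΔI of 0.112 in *Nova2-/-* cortex and 228 of them were a multiple of 3 in length. These values are a description, with *Luc7l* and *Rbm39* among the 11.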
